A study of Mus musculus with 185 samples.

Results

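Immediate early genes are the genes a neuron transcribes within minutes of being strongly stimulated, before any new protein has to be made. Calcium entry and receptor signalling activate kinases, the kinases phosphorylate factors already bound to DNA, such as CREB and the ternary complex of SRF, and the first transcripts to appear encode transcription factors and a few synaptic proteins. Their RNA is short-lived, so a level measured in frozen tissue reflects roughly the last stretch of time before death, and brain researchers use it as a marker of recent activity. The 10 genes described here are Fos, Fosb, Fosl2, Junb, Egr1, Egr2, Npas4, Nr4a1, Ier2 and Arc. They were taken by name from the 57010 rows of a count table of mouse brain, and 10 of 10 had a row and passed the filter on low counts in every fit.

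Fos, Fosb and Fosl2 encode proteins of the Fos family and Junb encodes a partner of the Jun family, and a Fos and a Jun protein together form the dimeric factor AP-1. Egr1 and Egr2 encode zinc finger transcription factors. Npas4 encodes a neuronal factor that responds selectively to calcium entry, Nr4a1 an orphan nuclear receptor and Ier2 a small nuclear protein. Arc differs from the others in that its product acts at synapses, where it promotes the removal of glutamate receptors.

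The animals were males of the inbred strain C57BL/6J, bought at an age of 8 weeks. In the 16 h study, 18 mice were housed in pairs in 9 cages, and 6 mice in 3 cages each stayed on chow, were switched to a high-fat diet (HFD) or were fasted. In the 24 h study, the mice were housed singly, and 9 mice on chow and 10 fasted mice were analysed here. All mice of both studies were killed by cervical dislocation in the morning, and 5 dissected regions per mouse were sequenced after removal of ribosomal RNA. The regions were hypothalamus, hippocampus, superior colliculus and inferior colliculus in both studies, with prefrontal cortex in the 16 h study and zona incerta in the 24 h study. The mice carry no transgene, and the 2 studies differ in housing, regions, hemisphere and sequencing run, so that a difference in level between them cannot be told apart from these.

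Each heading of the count table names a mouse, with 5 columns per mouse, and the heading does not tell which of the 5 columns is which region. The level of a gene in a mouse is therefore the sum of its 5 columns, written as CPM, its counts per 1000000 counts of that mouse. These totals lay between 57962237 and 161577364 counts per mouse, and single columns held 2994 to 65973281 counts. Below, 27 of all columns are called shallow, with a total under 1000000 counts or with under 16000 genes expected when 500000 counts are drawn, 4 of them in the 16 h study and 23 in the 24 h study. The labels mark 12 of 90 libraries of the 16 h study and 29 of 95 of the 24 h study as failing quality control. Of those 29, 24 were run on a flowcell of their own, 11 from chow-fed and 13 from fasted mice. The headings do not tell which columns these are, and the sums include them. The columns run through the mice in the same order as the labels list the libraries, which was not used to assign them. The part of the failing libraries in the results was not tested beyond the fits without shallow columns. Markers of neurons, astrocytes, oligodendrocytes and of the dissected regions were detected in every mouse, with no defining marker at 0, but a sum over 5 columns of unequal depth also weights the regions unequally. The summed hypothalamic markers, for example, ranged from 4.65 to 254.9 CPM over the 37 mice. In such a sum, fewer cells of a type and less RNA per cell cannot be told apart. The labels do not say that mice of a group came from separate litters, and p-values measure the spread between these mice.

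In the mouse genome (GRCm39, GENCODE vM39), the AP-1 genes lie at chr12:85520658-85524047 on the plus strand (Fos), chr7:19036621-19043976 on the minus strand (Fosb), chr5:32292707-32315186 on the plus strand (Fosl2) and chr8:85701113-85705359 on the minus strand (Junb). Egr2 lies at chr10:67371305-67378018 on the plus strand. Npas4 lies at chr19:5034382-5040344 on the minus strand, Nr4a1 at chr15:101151980-101172681 on the plus strand, Ier2 at chr8:85387960-85389483 on the minus strand and Arc at chr15:74540932-74544419 on the minus strand. Junb overlaps Prdx2 on the other strand and Nr4a1 overlaps Gm56721 on the same strand, and reads over the overlap with Gm56721 cannot be split by strand. Counts came from the gene counting of STAR, and which of its strand columns was taken is not given in the sources used here.

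RefSeq promoters of the older build GRCm38.p6 were at hand for 7 of the 10 genes, namely Fos, Fosb, Fosl2, Junb, Egr2, Npas4 and Nr4a1. Egr1, Ier2 and Arc had no entry. The 150 bases before the transcription start are shown for Fos, Junb and Nr4a1, which have 1 listed start each and whose levels the comparison of cage mates turns on. They lie at chr12:85473740-85473889 on the plus strand, chr8:84978749-84978898 on the minus strand and chr15:101266696-101266845 on the plus strand of GRCm38.p6, coordinates that must not be mixed with those of GRCm39 above. Capitals mark TGACG, the core of the element to which CREB binds, read on either strand, so that CGTCA is its other strand.
Fos: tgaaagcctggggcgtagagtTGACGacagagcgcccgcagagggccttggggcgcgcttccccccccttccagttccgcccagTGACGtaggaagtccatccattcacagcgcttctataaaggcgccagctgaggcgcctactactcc
Junb: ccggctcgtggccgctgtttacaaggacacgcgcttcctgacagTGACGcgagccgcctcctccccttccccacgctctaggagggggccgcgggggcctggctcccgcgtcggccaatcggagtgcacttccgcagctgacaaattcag
Nr4a1: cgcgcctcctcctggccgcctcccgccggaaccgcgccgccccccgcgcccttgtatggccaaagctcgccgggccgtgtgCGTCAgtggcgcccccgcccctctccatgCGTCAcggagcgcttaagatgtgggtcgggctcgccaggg

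Within 250 bases before a start, TGACG on either strand was present in 6 of the 7 genes (Fos, Fosb, Junb, Egr2, Npas4 and Nr4a1) and in 19.8% of the 27025 genes with a listed promoter. Fos holds 2 such stretches and Junb 1, all within the bases shown. Nr4a1 holds 4, and 2 of them lie within the bases shown. The full palindrome TGACGTCA, which holds TGACG, was in 0 of the 7 and in 1.77% of all genes, and TGANTCA, the AP-1 element, in 0 of the 7 and 7.82%. GCGNGGGCG, the element of EGR factors, was present on either strand in Fosb, Fosl2 and Nr4a1 and in 5.33% of all genes. The CArG box, to which SRF binds, was found in Egr2 and in 1.62% of all genes. A match of letters is a description and does not show that a factor binds there.

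Among the comparisons within a study, the median log2 fold change of these genes was largest in size by the order of death within a cage. It was 0.77, against medians of −0.47 to 0.40 between diets. The upper of these, at 24 h, was 0.23 without mouse 1445 and 0.093 with equal column weights, both described with that study. With equal column weights the lower, fasted against HFD at 16 h, was −0.30, and the median by order was 0.65. Taken singly, Egr1 and Fosl2 differed more between fasted and HFD-fed mice than by order. In the 16 h study the mice of a cage were killed 1 after the other, 6 to 13 minutes apart (median 10), and 9 of the 10 genes were higher in the second mouse than in the first in 9 of 9 cages. The exception, Fosl2, was higher in 6 of 9 cages. Of 29033 genes tested, 90 were higher in the second mouse in every cage, or 0.31%, and 51 were lower in every cage. The comparison asks whether the order within the cage, which the recorded times of death give, goes with the level of the transcripts.

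Fos was 5.87 CPM in the lowest, 7.60 in the median and 11.8 in the highest of the first mice, against 7.30, 16.4 and 23.6 CPM in the second mice. The ranges overlapped, since cages differed, but within a cage the second mouse had between 1.24 and 3.36 times the Fos level of the first. In edgeR's quasi-likelihood test with the cage as a block, the log2 fold change was 1.00 ± 0.12 (SE, n = 9 cages), with a Benjamini-Hochberg adjusted p of 0.0173.

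**Figure D1:**
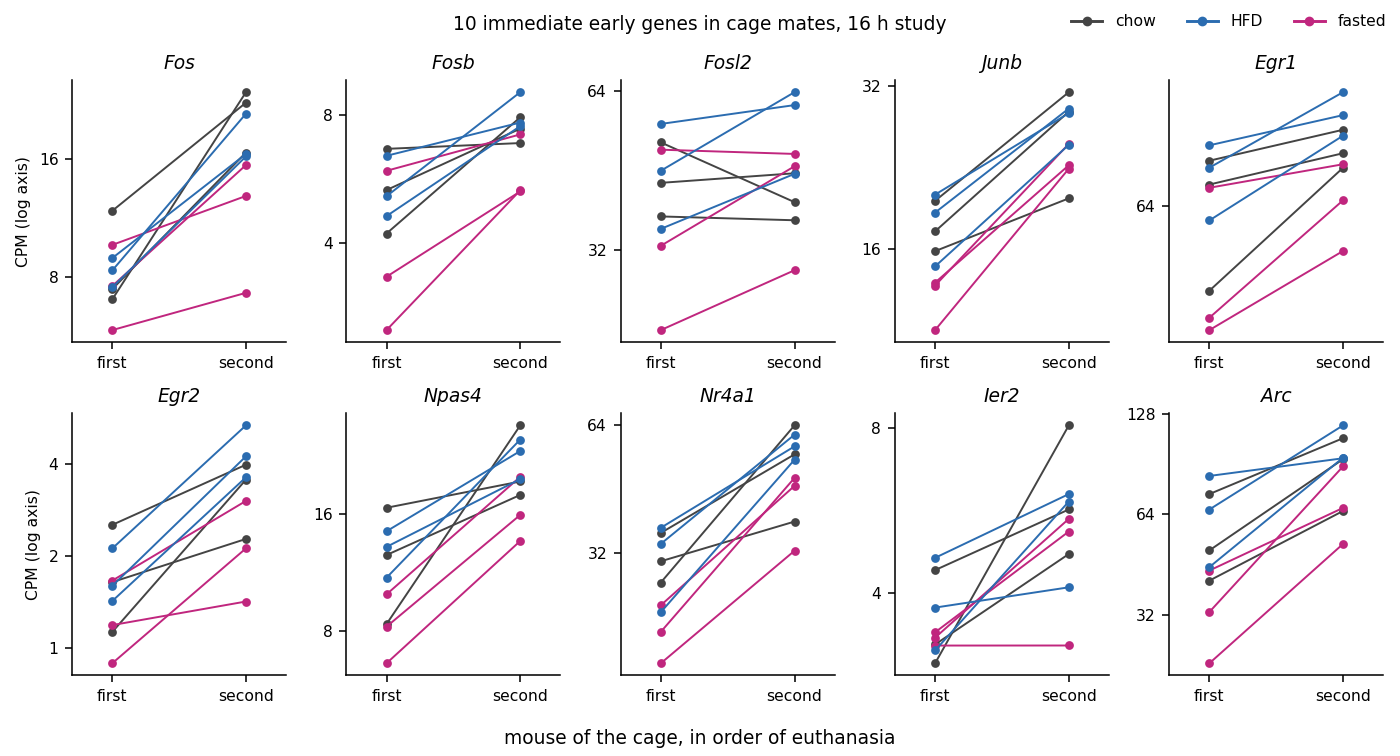
Level of each immediate early gene in CPM (log axis) in the first and the second mouse of the 9 cages of the 16 h study, a line per cage coloured by diet. Lines rise from left to right in 9 of 9 cages for each gene except Fosl2, although Ier2 was nearly level in 1 cage (ratio 1.00).

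Junb, the AP-1 partner, gave the smallest adjusted p among the 10 genes. The first mice lay between 11.3 and 20.2 CPM (median 15.9) and the second mice between 19.8 and 31.2 CPM (median 25.0), so that the ranges nearly separated. The second mouse had 1.25 to 1.99 times the level of its cage mate, a log2 fold change of 0.70 ± 0.07 (adjusted p = 0.00376, edgeR). Fosb lay between 2.5 and 6.67 CPM in the first mice and between 5.30 and 9.07 CPM in the second. Its log2 fold change of 0.59 ± 0.11 missed the threshold after adjustment (adjusted p = 0.212, edgeR), as did that of Fosl2, 0.17 ± 0.09 (adjusted p = 0.941).

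Of the EGR genes, Egr2 was low throughout, at 0.892 to 2.53 CPM (median 1.60) in the first mice and 1.42 to 5.34 CPM (median 3.55) in the second. The within-cage ratio ran from 1.19 to 3.15, and the log2 fold change was 1.04 ± 0.14 (adjusted p = 0.0393, edgeR). Egr1, at chr18:34992876-34998049 on the plus strand of GRCm39, lay between 35.6 and 85.3 CPM in the first mice and between 51.8 and 109.6 CPM in the second, with a ratio of 1.12 to 1.79 and a log2 fold change of 0.46 ± 0.08 (adjusted p = 0.206, edgeR).

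Nr4a1 was 17.6 to 36.6 CPM (median 27.2) in the first mice and 32.4 to 63.8 CPM (median 53.0) in the second. The second mouse exceeded the first by a factor of 1.24 to 2.34, with a log2 fold change of 0.88 ± 0.10 (adjusted p = 0.00805, edgeR). Npas4 gave 6.59 to 16.6 CPM against 13.6 to 27.1 CPM, a log2 fold change of 0.88 ± 0.13 that missed the threshold (adjusted p = 0.0605, edgeR). Arc, the synaptic effector, gave 22.9 to 83.4 CPM against 52.1 to 118.2 CPM and stood at the edge of the threshold, with a log2 fold change of 0.84 ± 0.12 (adjusted p = 0.0501, edgeR). Ier2 gave 2.98 to 4.63 CPM against 3.21 to 8.07 CPM and a log2 fold change of 0.58 ± 0.12 (adjusted p = 0.473, edgeR).

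Thus 4 of the 10 genes, Fos, Junb, Egr2 and Nr4a1, passed an adjusted p of 0.05, where 10 of all 29033 genes tested did, or 0.0344%. Before adjustment 9 of the 10 had a p under 0.05, as did 1436 of all genes tested. The median log2 fold change of the 10 genes was 0.77, against 0.0016 over all genes tested. DESeq2 called 9 of the 10 and 42 genes in all. Leaving out each cage in turn, Junb and Nr4a1 were called in 9 of 9 fits, Fos in 3 of 9 and Egr2 in 2 of 9. Fos lost its call without cage 34, 35, 37, 40, 41 or 42 (adjusted p 0.0579 to 0.0989), and Egr2 lost it without cage 35, 36, 37, 38, 40, 41 or 42 (adjusted p 0.0802 to 0.155). Without cage 34 the call for Npas4 was gained (adjusted p = 0.0350), and without cage 40 that for Arc (adjusted p = 0.0104).

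**Figure D2:**
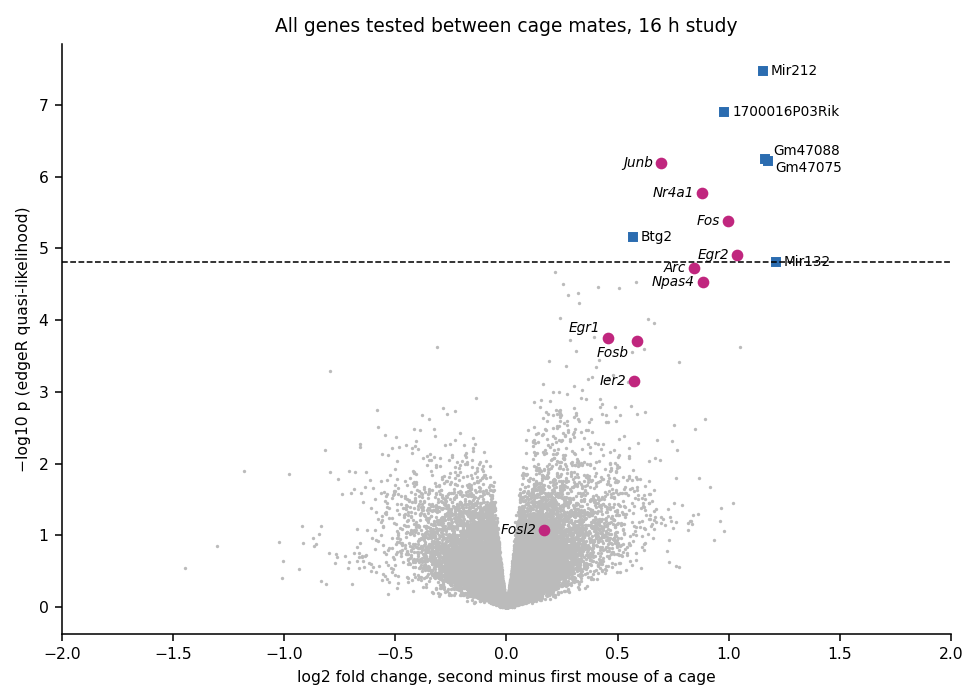
Each point is 1 of the 29033 genes tested between cage mates, placed by its log2 fold change (second minus first mouse, x axis) and −log10 of its unadjusted p (y axis). Immediate early genes are circles, other called genes are squares, and the dashed line marks the largest p among the 10 called genes, which were all higher in the second mouse.

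The other 6 called genes are named here after their values were seen. Btg2, an inducible antiproliferative gene that was in the list of wider inducible factors, rose from a median of 13.8 to 19.6 CPM, with a log2 fold change of 0.57 ± 0.07 (adjusted p = 0.0252, edgeR). Mir212, Mir132 and 1700016P03Rik are 3 rows of 1 locus. The hairpin rows Mir212 at chr11:75064214-75064304 and Mir132 at chr11:75064508-75064573 (GRCm39) lie inside 1700016P03Rik, a long noncoding RNA on the same strand at chr11:75063301-75070543, and miR-132 and miR-212 are known as microRNAs that neurons induce through CREB. Mir212 gave the smallest p of all genes tested, with 0.339 to 0.763 CPM in the first mice, 0.656 to 1.44 CPM in the second and a log2 fold change of 1.15 ± 0.09 (adjusted p = 0.000963, edgeR). The libraries hold long RNA, so these rows count reads over the hairpin and not the mature microRNA.

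The remaining called rows, Gm47075 at chr13:93448549-93450563 and Gm47088 at chr13:93453935-93455573, lie on the plus strand inside Homer1, which encodes a scaffold protein of synapses and has a short activity-induced transcript. Gm47075 gave a log2 fold change of 1.18 ± 0.12 and Gm47088 one of 1.16 ± 0.11, each with an adjusted p of 0.00376 (edgeR). The row of Homer1 itself gave a log2 fold change of 0.26 ± 0.12 and was not called (adjusted p = 0.941, edgeR). Whether reads of Homer1 transcripts enter the rows inside it was not tested.

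Other lists of the pathway were counted in the same comparison. Of 18 further inducible transcription factors, 18 had a positive log2 fold change and 1, Btg2, was called. None of 22 activity-regulated effectors was called, with Ccn1 lowest in p (log2 fold change 0.64, adjusted p = 0.125, edgeR). Of 16 MAP kinase phosphatases and feedback regulators 0 were called, with Dusp1, a phosphatase that switches off MAP kinases, lowest in p at 0.66 (adjusted p = 0.140, edgeR). None of 29 upstream kinases and constitutive factors was called, with Camkk2 lowest in p at 0.28 (adjusted p = 0.941, edgeR). Of 6 glucocorticoid-responsive genes, 3 were higher and 3 lower in the second mouse and 0 were called, with a median of −0.01. Per1, a clock gene that glucocorticoids also induce, was lowest in p, with a log2 fold change of 0.26 (adjusted p = 0.0605, edgeR).

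The order difference was positive in each of the 3 diets for 9 of the 10 genes, and for Fosl2 in HFD-fed and fasted mice but not on chow. Fos differed between cage mates by a log2 fold change of 1.27 in the chow cages, 1.08 in the HFD cages and 0.63 in the fasted cages, while Junb differed by 0.57, 0.61 and 0.91. No gene was called for a difference between the diets in the effect of order (0 of 29033, or 0%, with 884 at an unadjusted p under 0.05), and the adjusted p of the 10 genes lay between 0.960 and 0.976 (edgeR). With 3 cages per diet, a difference of moderate size could have been missed.

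Marker sums and depth also differed between cage mates, by ratios that lay on both sides of 1. Neuronal markers were higher in the second mouse in 7 of 9 cages (ratio 0.813 to 1.29, median 1.19), markers of cortical and hippocampal excitatory neurons in 6 of 9 (0.554 to 2.64, median 1.20), those of meninges and fibroblasts in 7 of 9 (0.508 to 1.99, median 1.15) and those of microglia in 7 of 9 (0.833 to 1.19, median 1.01). Markers of the colliculi and midbrain were higher in 3 of 9 (0.579 to 1.56, median 0.75), those of oligodendrocytes in 4 of 9 (0.653 to 1.19, median 0.80), and depth in 5 of 9 (0.648 to 1.70, median 1.04). The part of these in the result was not tested. When the shallow columns were left out and every other column of a mouse was given the same weight, the log2 fold change was 0.91 for Fos, 0.70 for Junb, 0.85 for Nr4a1 and 0.73 for Egr2, and the adjusted p was 0.00533, 0.00119, 0.0123 and 0.177 (limma). The second mouse of a cage is also the mouse with the even number in 9 of 9 cages. The time of death, the order of handling, the loss of the cage mate and any order of later steps cannot be told apart. In cages 35, 38 and 41 the first mouse gave left and the second right tissue of all regions but the hypothalamus. Hemisphere cannot be told apart from order in these cages either.

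The 5 columns of a mouse can be compared as a set although the headings do not name their regions. The median column of Fos was higher in the second mouse in 9 of 9 cages and the lowest and the highest column in 8 of 9 each. For Junb these counts were 8 of 9 for the median, 7 of 9 for the lowest and 8 of 9 for the highest column. For Egr1, in contrast, the median column was higher in the second mouse in 3 of 9 cages, although its summed level was higher in 9 of 9, and the lowest column was higher in 8 of 9 and the highest in 7 of 9. Shallow columns enter all these counts, and counts without them were not taken. The lowest Fos columns of second mouse 10 and first mouse 11 were shallow ones at 0 CPM. So were the lowest Junb columns of second mice 10 and 12. The highest Fos column of second mouse 12 was a shallow one with 2 counts. The highest Junb columns of second mouse 4 and first mouse 11 were shallow ones with 59 and 2 counts.

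**Figure D3:**
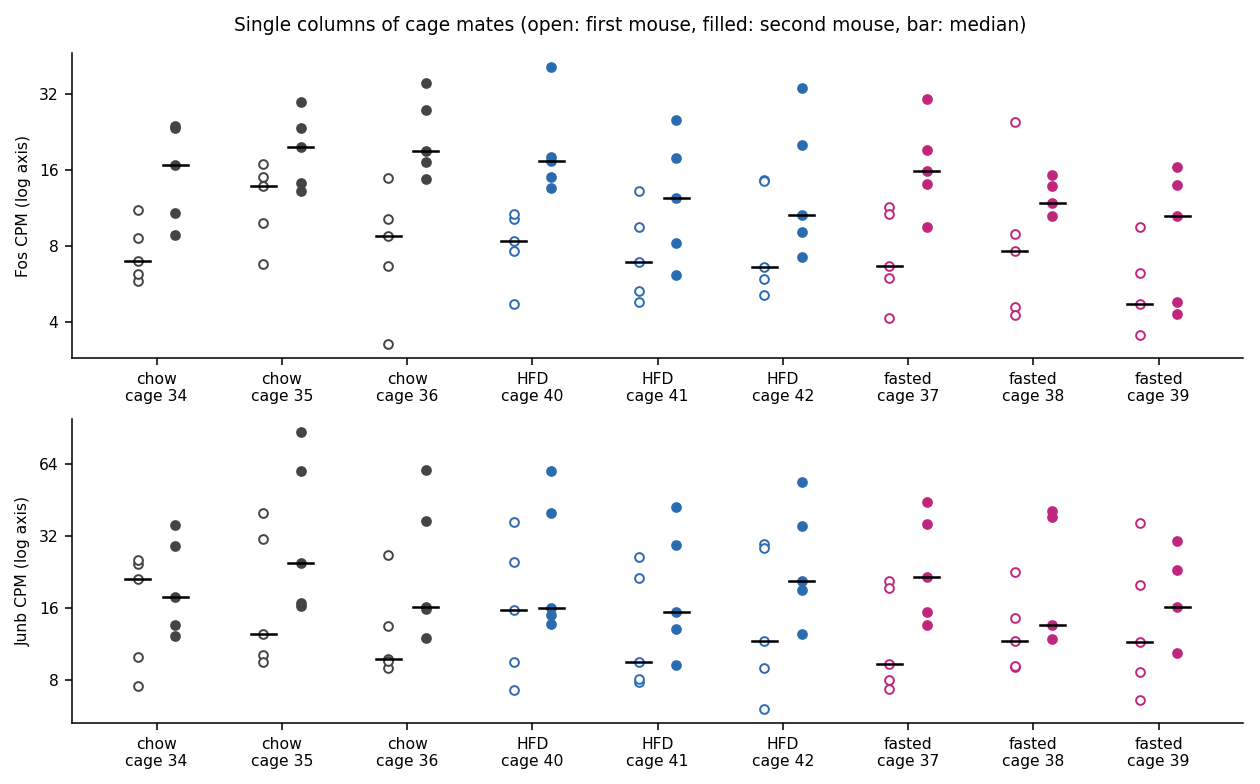
Fos and Junb in each of the 5 columns of the 18 mice of the 16 h study (CPM, log axis), with cage mates side by side (open, the first mouse; filled, the second mouse) and a bar at the median of 5 columns. The median of Fos is higher in the second mouse in 9 of 9 cages and that of Junb in 8 of 9. Shallow columns are included, but those at 0 CPM cannot be drawn on a log axis, though they count in the bar. They are 1 column each of Fos in mice 10 and 11 and of Junb in mice 10 and 12.

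In the 16 h study, leaving out shallow columns, Arc ran from 13.0 to 341.4 CPM over 86 columns, and within a mouse its highest column was 8.17 times the lowest (median of 18 mice). This within-mouse ratio was 8.89 for Egr1, 7.26 for Egr2 and 5.38 for Nr4a1, but 2.76 for Fos and 2.40 for Ier2. In the 24 h study, with zona incerta in place of prefrontal cortex, it was 2.64 for Egr1, 2.35 for Fos and 5.53 for Arc.

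Among the diets of the 16 h study, no immediate early gene was called. In fasted against chow-fed mice 10 of 10 had a negative log2 fold change, with a median of −0.37 against −0.0034 over all genes tested, and the adjusted p lay between 0.695 and 0.896 (edgeR). Fos was 7.03 to 23.6 CPM (median 14.2) on chow and 5.87 to 15.4 CPM (median 8.63) after fasting, a log2 fold change of −0.57 ± 0.33 (n = 6 mice per diet, adjusted p = 0.7105). Egr1 was 42.9 to 91.8 CPM (median 77.99) on chow and 35.6 to 77.97 CPM (median 58.8) after fasting, −0.37 ± 0.20 (adjusted p = 0.695). The groups overlapped for every 1 of the 10 genes. Fasted mice 10, 11 and 12 and chow-fed mouse 4 had 4 columns each that were not shallow. For low alignment, the labels fail 3 libraries of fasted and 1 of chow-fed mice. Markers of cortical and hippocampal excitatory neurons had medians of 589.5 CPM (529.9 to 753.4) on chow and 705.8 CPM (414.1 to 1091.4) after fasting. The lowest sum was that of mouse 11, which also had the lowest Fos and Egr1 of the fasted mice. The part of these was not tested. No gene of the 29746 tested was called in this comparison (0%; 2267 genes had an unadjusted p below 0.05, with 19 calls by DESeq2), and 0.289% had ranges that did not overlap.

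**Figure D4:**
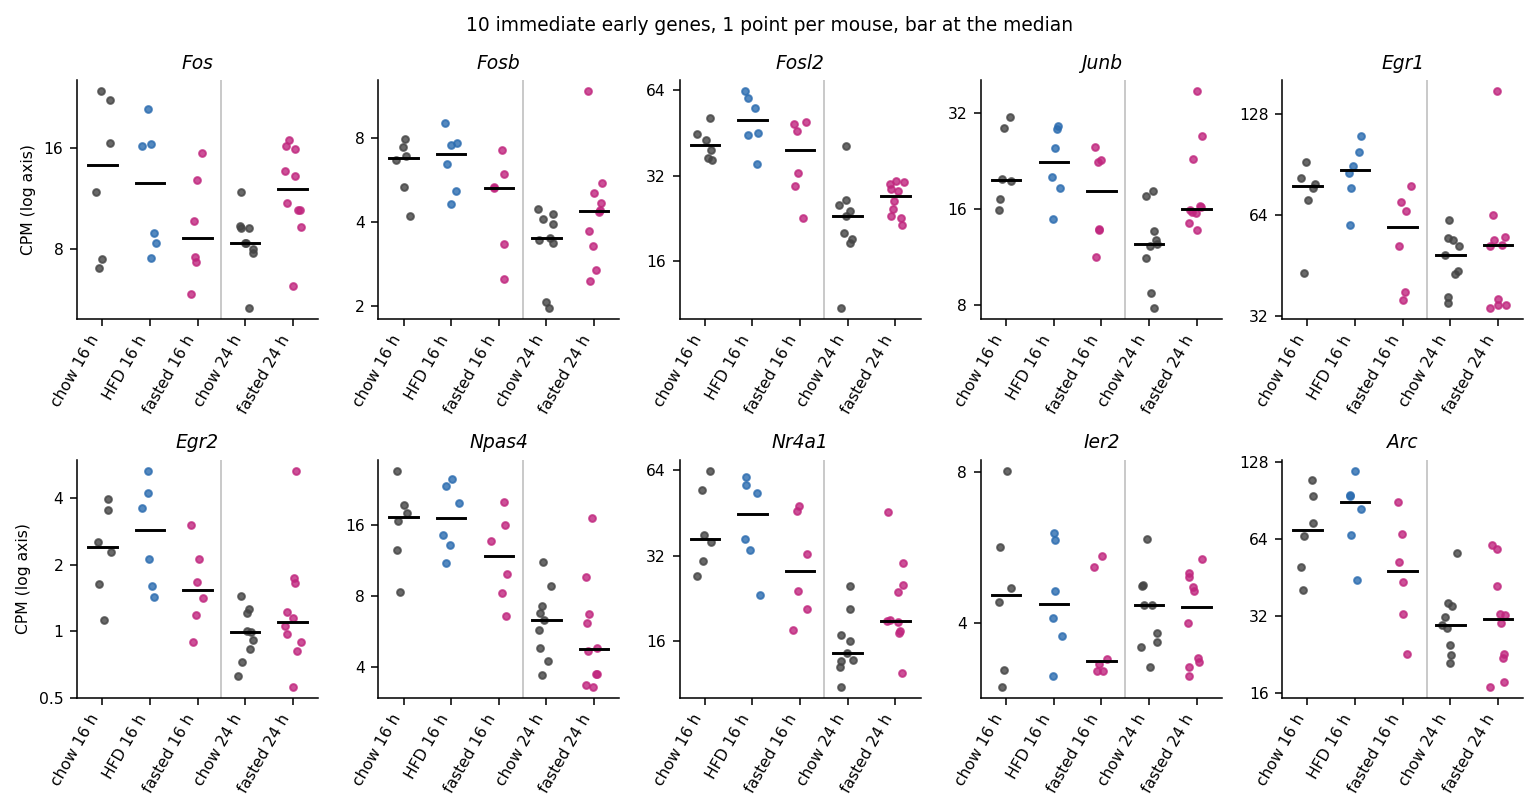
Level of each immediate early gene in CPM (log axis), 1 point per mouse with a bar at the median, in the 3 diets of the 16 h study (6 mice each) and in chow-fed (9) and fasted (10) mice of the 24 h study. Diets overlap in all panels, and the lone high point of the fasted 24 h group in the panels of Egr1, Egr2, Fosb and Npas4 is mouse 1445.

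Against HFD, the fasted mice were again lower in 10 of 10 genes, with a median log2 fold change of −0.47 (0.0011 over all genes). The fasted mice are the same in both comparisons, so that they are not independent. Egr1 came closest to a call, with 59.8 to 109.6 CPM (median 87.3) on HFD against 35.6 to 77.97 CPM after fasting and a log2 fold change of −0.62 ± 0.20 (adjusted p = 0.208, edgeR). Arc was 44.4 to 118.2 CPM on HFD and 22.9 to 89.1 CPM after fasting, −0.71 ± 0.30 (adjusted p = 0.371), and Egr2 gave −0.82 ± 0.37 (adjusted p = 0.405) and Fosl2 −0.42 ± 0.17 (adjusted p = 0.358). These 4 had an unadjusted p under 0.05, as did 3386 of all genes tested. With the shallow columns left out and equal weight for the others, the median was −0.30. Then 1 of the 10 and 4139 of all genes had an unadjusted p under 0.05 (limma). Of all 29746 genes 65 were called, or 0.219%, and 0 of the 10. Without HFD-fed mouse 13 the calls over all genes were 4, and without fasted mouse 11 they were 0. Markers of cortical and hippocampal excitatory neurons had a median of 766.4 CPM (595.6 to 1074.7) on HFD. The summed hypothalamic markers of mouse 13 were 4.65 CPM. The part of these was not tested. Diet was given by cage, and with the counts of a cage summed 0 genes were called. Ranges that did not overlap were found in 1.09% of all genes and in 0 of the 10.

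HFD against chow moved the genes least, with 8 log2 fold changes above 0 and 2 below, from −0.15 ± 0.33 for Fos to 0.31 ± 0.36 for Egr2. None was called (adjusted p 0.564 to 0.962, edgeR), nor was any gene of 29746 (0%; 2914 genes had an unadjusted p below 0.05, with 5 calls by DESeq2). Ranges did not overlap for 0.662% of all genes and for 0 of the 10. In Fos, Fosb, Junb, Npas4, Nr4a1 and Ier2 the direction turned when single mice were left out, so that no direction is given for them. With equal weight for each column that was not shallow, the value for Egr2 turned its sign too.

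Since order within the cage was balanced over the diets, its spread stands within every diet group. The order was then added as a covariate, an alternative chosen after the data were seen. The log2 fold changes between fasted and HFD-fed mice were close to those above, at −0.63 for Egr1, −0.78 for Arc and −0.52 for Nr4a1. An unadjusted p under 0.05 was found for 8 of the 10 genes, where 4 had one before. Over all genes tested 3353 had one, against 3386 before. The smallest adjusted p was 0.119 for Arc, and 0 of the 10 were called. Between fasted and chow-fed mice the count with an unadjusted p under 0.05 went from 0 to 8 of 10, with adjusted p of 0.600 to 0.887 (edgeR). Over all genes tested that count went from 2267 to 2218. This fit takes each mouse as a replicate although diet was given by cage, so that its p-values can be too small. With the counts of a cage summed, 2 of the 10 had an unadjusted p under 0.05 against chow and 7 against HFD (edgeR). Over all genes tested 2080 and 2881 had one.

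**Figure D5:**
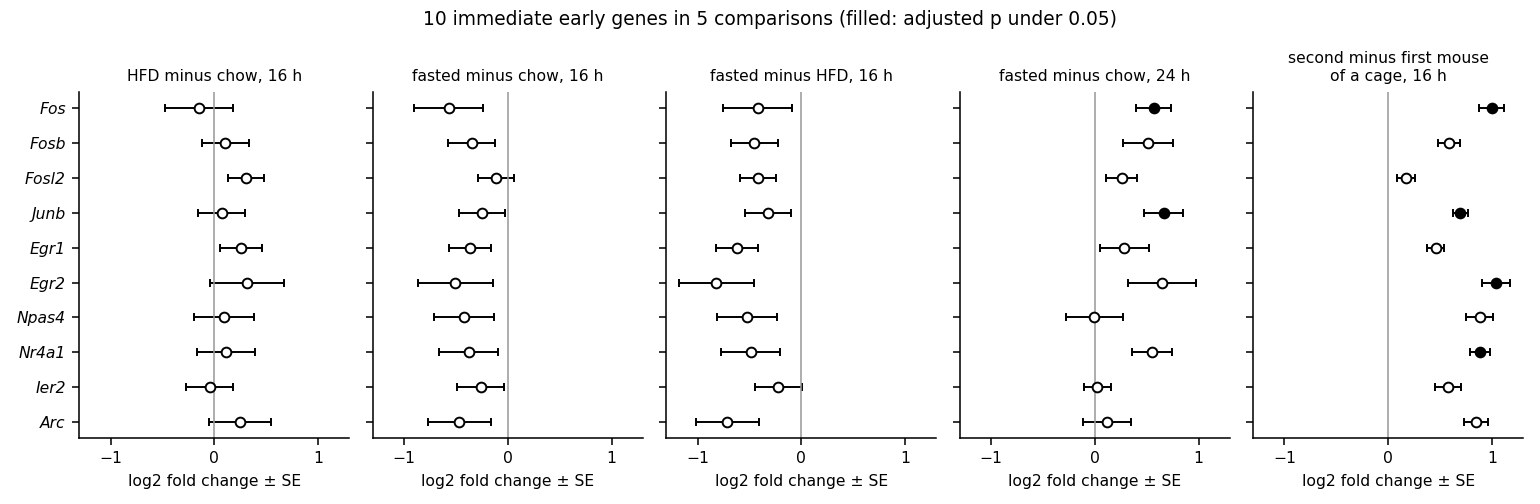
Log2 fold change with its standard error (x axis) of each of the 10 genes in 5 comparisons, filled where the adjusted p was under 0.05. Filled points are Fos and Junb between fasted and chow-fed mice at 24 h, and Fos, Junb, Egr2 and Nr4a1 between cage mates.

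After 24 h of fasting in singly housed mice, 2 of the 10 genes rose, both of AP-1. Fos was 5.35 to 11.8 CPM (median 8.34) in 9 chow-fed mice and 6.20 to 16.8 CPM (median 12.1) in 10 fasted mice. The groups overlapped, and the log2 fold change was 0.57 ± 0.17 (adjusted p = 0.0326, edgeR). Junb was 7.82 to 18.2 CPM (median 12.4) on chow and 13.8 to 37.6 CPM (median 16.0) after fasting, a log2 fold change of 0.66 ± 0.18 (adjusted p = 0.0224, edgeR). In all, 3307 of 29011 genes were called, or 11.4%, so that 2 of 10 is near the background share, and 0 of the 10 had ranges apart against 1.3% of all genes.

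The other 8 genes were not called at 24 h. Nr4a1 was 11.0 to 25.0 CPM (median 14.6) on chow and 12.4 to 45.5 CPM (median 18.9) after fasting, with a log2 fold change of 0.55 ± 0.19 (adjusted p = 0.0735, edgeR). Fosb gave 0.51 ± 0.24 (adjusted p = 0.189), Egr2 0.65 ± 0.33 (adjusted p = 0.233), Fosl2 0.26 ± 0.15 (adjusted p = 0.303) and Egr1 0.28 ± 0.23 (adjusted p = 0.508). For Arc, Ier2 and Npas4 the fitted log2 fold changes were 0.12, 0.03 and −0.0031, and leaving out single mice turned their sign.

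The calls of Fos and Junb depended on the columns and mice used. Without the shallow columns the log2 fold changes were 0.52 for Fos and 0.61 for Junb, with adjusted p of 0.0562 and 0.0606 (edgeR). With equal weight for each of the remaining columns they were 0.44 and 0.29, with adjusted p of 0.0839 and 0.241 (limma). According to the labels, chow-fed mouse 1423 and fasted mouse 1454 had their superior colliculus tubes exchanged. The study's methods say that the records of both samples were corrected for this. Without both mice the log2 fold change was 0.67 for Fos (adjusted p = 0.0206, edgeR) and 0.62 for Junb, which was then not called (adjusted p = 0.0630, edgeR). Leaving out 1 mouse in turn, Junb was called in 19 of 19 fits and Fos in 12 of 19. Fos lost the call without chow-fed mouse 1431, 1443, 1451 or 1452 or fasted mouse 1424, 1435 or 1444 (adjusted p 0.0508 to 0.0633), and Nr4a1 gained one without chow-fed mouse 1422 (adjusted p = 0.0285) or fasted mouse 1425 (adjusted p = 0.0274).

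Fasted mouse 1445 stood apart from the other 9 in several genes, with 149.6 CPM of Egr1 against at most 64.1, 5.33 of Egr2 against at most 1.75, 11.8 of Fosb against at most 5.51 and 17.1 of Npas4 against at most 9.56. It had the highest Junb, Nr4a1 and Arc levels of its group too, but its Fos, at 10.5 CPM, lay below the group's median. This mouse had the lowest depth of all 37 and the lowest marker level of cortical and hippocampal excitatory neurons (102.9 CPM) and of the colliculi (120.01 CPM) and the highest of microglia (112.8 CPM) in its group. The part of these in its levels was not tested. Without it, in a fit added after the data were seen, the log2 fold change was 0.60 for Fos and 0.51 for Junb (adjusted p 0.0280 and 0.0259, edgeR), 0.22 for Egr2, 0.0031 for Egr1 and −0.30 for Npas4.

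Several marker sums differed between the diets at 24 h, with ranges that overlapped. Astrocyte markers had a median of 836.8 CPM (747.6 to 876.9) on chow and 662.5 CPM (611.6 to 806.3) after fasting, microglial markers 108.5 CPM (84.9 to 122.1) and 78.95 CPM (65.1 to 112.8), markers of meninges and fibroblasts 108.6 CPM (39.4 to 162.3) and 58.3 CPM (35.4 to 76.7), and markers of the endothelium 157.6 CPM (133.4 to 217.0) and 131.04 CPM (102.9 to 164.3). Markers of cortical and hippocampal excitatory neurons had medians of 262.9 CPM (208.9 to 803.9) and 427.5 CPM (102.9 to 588.4). No defining marker was at 0 in either group. Their part in the levels of Fos and Junb was not tested.

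Further inducible genes from the lists rose with fasting at 24 h, where 11.4% of all genes tested were called. Of the 18 wider inducible factors 6 rose and 0 fell, with Maff, a small Maf protein that can pair with Fos, at 0.94 to 1.72 CPM on chow and 2.80 to 8.44 CPM after fasting, a log2 fold change of 2.09 (adjusted p = 8.02e-07, edgeR). Csrnp1 followed with ranges of 4.84 to 6.82 and 9.36 to 12.9 CPM and 0.96 (adjusted p = 2.95e-08), and Atf3, a stress-responsive factor, and Klf2 with 0.66 and 0.51. Of 22 activity-regulated effectors 7 rose and 0 fell, led by Trib1 (0.74), Ccn1 (0.64), Gadd45g (0.56) and Sik1 (0.49).

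Of all genes tested at 24 h 11.4% were called, and of 16 MAP kinase phosphatases and feedback regulators 3 rose. They were Zfp36, which encodes a protein that promotes decay of inducible mRNAs, at 2.42 to 3.48 CPM on chow and 4.69 to 8.96 CPM after fasting (log2 fold change 1.16, adjusted p = 1.00e-06, edgeR), Dusp1 (0.90) and Spry1 (0.25). Among 29 upstream kinases and constitutive factors, Crtc2, a coactivator of CREB, rose by 0.18 and Creb1 itself fell by 0.26. All 6 of the glucocorticoid-responsive genes rose, with Sgk1 at 33.1 to 71.03 CPM on chow and 146.2 to 285.2 CPM after fasting (log2 fold change 2.36), Fkbp5 at 1.81, Zbtb16 at 1.33 and Per1 at 0.86. The median log2 fold change was 1.09 over these 6 genes, 0.13 over the wider factors and 0.40 over the 10 immediate early genes, against −0.0044 over all genes tested. That of the 10 was 0.23 without mouse 1445 and 0.093 with the shallow columns left out and equal weight for the others.

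The fasting effect of the 24 h study minus that of the 16 h study was positive in 10 of 10 genes, with a median of 0.75 on the log2 scale, and none was called. With equal column weights 9 of 10 were positive and the median was 0.28 (limma). Fos came closest at 1.14 ± 0.37 (adjusted p = 0.129, edgeR), then Junb at 0.91 ± 0.30 (adjusted p = 0.147). Of 30849 genes 523 were called, or 1.7%. With the order in the cage as a covariate for the 16 h mice, Fos gave 1.05 (adjusted p = 0.0266), Junb 0.95 (adjusted p = 0.0316) and Nr4a1 0.97 (adjusted p = 0.0493, edgeR), a fit chosen after the data were seen. That fit called 494 of 30849 genes in all. Diet at 16 h was given by cage, and cage sums were not tried for this difference. The studies differ in housing, regions and duration, and which of these goes with the difference cannot be told apart.

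By group, the median level was highest on HFD at 16 h for 7 of the 10 genes and on chow at 16 h for Fos, Npas4 and Ier2. The lowest median was in chow-fed mice of the 24 h study for 8 of 10, in fasted mice of the 24 h study for Npas4 and in fasted mice of the 16 h study for Ier2. In the order of the 5 medians no neighbouring groups had ranges apart for any of the 10 genes. The median on chow at 16 h was 2.74 times that at 24 h for Npas4, 2.52 times for Nr4a1, 2.43 times for Egr2 and 1.05 times for Ier2.

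Mice that were high in 1 of these genes tended to be high in the others. After the mean of each diet was taken off, the 45 pairs of genes had a Pearson correlation of log2 CPM between 0.25 and 0.96 (median 0.79) over the 18 mice of the 16 h study, where cage order is shared by all pairs. Of 19660 genes ranked by their correlation with the mean of the 10, Nr4a1 was at rank 1 (r = 0.98), and 9 of the 10 genes were within rank 12. Fosl2 was at rank 1127 (r = 0.51). The genes outside the 10 that were most like the mean of the 10 were Gm47075 (r = 0.96), 1700016P03Rik (0.94), Gm47088 (0.94), Egr4 (0.86) and Btg2 (0.85).

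In the 24 h study the pairs had correlations from −0.32 to 0.90 (median 0.59) over 19 mice. Junb was at rank 1 of 18109 genes (r = 0.94), but Fos was at rank 6560 (r = 0.27) and Ier2 at rank 12337 (r = −0.04). The genes outside the 10 that were most like the mean were Fgfr1op2 (0.89), Mgat4b (0.89), Rem2 (0.88), Sertad1 (0.87) and Musk (0.87), none of which was among the 5 of the 16 h study. The mean includes each gene itself, and the genes of a mouse share its depth and region weights, whose part in these correlations was not tested.

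The clock time of death, which spread over the morning, did not go with the 10 genes to the point of a call. In the 16 h study 4 of 10 slopes per hour were positive and none had an unadjusted p under 0.05, and no gene of 29746 was called (0%; 1508 genes had an unadjusted p below 0.05, with 1 call by DESeq2). In the 24 h study 8 of 10 slopes were positive, and Npas4 alone had an unadjusted p under 0.05, with a log2 change of 0.52 ± 0.19 per hour (p = 0.0148, adjusted p = 0.819, edgeR). There too no gene of 29011 was called (0%; 1513 genes had an unadjusted p below 0.05, with 0 calls by DESeq2).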

How the data were processed

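Brain tissue RNA of 37 mice was sequenced after ribosomal RNA depletion. The authors aligned reads with STAR 2.7.3a to GRCm39, counted them per gene with its GeneCounts mode and deposited the raw counts; the strand column and annotation release are not given in the sources used here. The deposited table has 185 columns, 5 per mouse, headed by mouse and not by region. No column was left unmapped to a mouse. Here the 5 columns of a mouse were added up. Genes were named from GENCODE vM39 (56310 of 57010 rows).

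Tests used edgeR 4.0.16 (R 4.3.3) with filterByExpr, TMM factors and quasi-likelihood F tests, adjusted by Benjamini-Hochberg over all genes tested, with calls at an adjusted p under 0.05. Each diet comparison used its own study. Cage mates were compared with cage as a block, and slopes were fitted beside diet. Standard errors are the log2 fold change divided by the root of F. DESeq2 1.42.0 and limma 3.58.1 (log2 CPM, prior count 2) served as alternatives, with other size factors, filters, columns, covariates and mice. On simulated counts with 200 changed genes, the edgeR test of fasted against chow recovered 193 with 14 false calls at 16 h (29492 genes) and 200 with 13 at 24 h (28767 genes).

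Depth was 57962237 to 161577364 counts per mouse, and no interval on a share of counts is given. The 10 genes, the lists and the tests were chosen with earlier results of these data known. All 10 genes are named in every comparison. From a list, up to 4 called genes that rose and 4 that fell the most are named, or else some of the 3 with the lowest p. No list was tested as a set.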

Additional observations from a re-analysis of the deposited data

Results flagged for a closer look

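Single mice stood apart from their group by Dixon's criterion in 5 of 50 groups tested, where chance flags about 1 group in 20. Of these, 4 were fasted mouse 1445 of the 24 h study, with 11.8 CPM of Fosb, 149.6 CPM of Egr1, 5.33 CPM of Egr2 and 17.1 CPM of Npas4. The last was Arc at 56.3 CPM in chow-fed mouse 1422, against at most 35.9 CPM in the other 8 mice of its group.

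The fasting effect at 24 h minus that at 16 h was called in 2 of 18 wider inducible factors, 3 of 22 effectors, 2 of 16 phosphatases and feedback regulators, 1 of 29 upstream kinases and constitutive factors and 5 of 6 glucocorticoid-responsive genes, against 523 of 30849 genes tested, or 1.7% (edgeR). On the log2 scale the difference was 2.199 for Maff and 0.85 for Csrnp1 among the inducible factors, and 0.83 for Trib1, 0.53 for Tiparp and 0.50 for Gadd45g among the effectors. It was 1.19 for Dusp1, 1.18 for Zfp36 and 0.26 for Crtc2. For the glucocorticoid-responsive genes it was 1.83 for Sgk1, 1.47 for Fkbp5, 1.06 for Zbtb16, 0.75 for Per1 and 0.55 for Klf9. The studies differ in housing and regions, and the part of these was not tested.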

How the results depend on the processing

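Between the diets, no paired analysis was possible because their mice share no replicate numbers. Cage mates were compared with the cage as a block, and the round of cages was tried as a block for the diets of the 16 h study, which changed no call of the 10 genes. Over the alternatives that keep all mice or leave out named ones, the called values of the 10 genes stayed called in 30 of 36 cases and lost the call in 6, and none turned its sign. The causes were not tested. Cage order as a covariate, the first or second mice alone and the fit without mouse 1445 were chosen after seeing the data. Equal column weights leave out the shallow columns too, and the labels note an exchange of tubes between mice 1423 and 1454, for which the study's methods say the records were corrected.

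Between cage mates, DESeq2 called 42 genes in all and 9 of the 10. Leaving out each cage in turn gave 6 to 12 calls over all genes and 2 to 4 of the 10. In the 24 h study 0 of the 10 were called without the shallow columns or with equal column weights, 1 without mice 1423 and 1454, and 1 to 3 when each mouse was left out. With cage order as a covariate, 3 of the 10 were called for the difference between the fasting effects, and 494 genes in all. Over all genes, DESeq2 called 5 genes for HFD against chow, 19 for fasted against chow at 16 h, 354 for fasted against HFD and 1 for the 16 h slope. Cage order as a covariate gave 1 call for fasted against chow at 16 h. For fasted against HFD there were 26 calls without the filter, about 1.3e+02 with equal column weights, 142 with clock time, 0 with cage sums and 0 with only the first or only the second mice. Leaving out each mouse gave 0 to about 1.1e+02.

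No value that turned its sign was called. For HFD against chow, equal column weights gave −0.069 for Fosb, −0.054 for Junb, −0.027 for Egr2, −0.12 for Npas4 and −0.068 for Nr4a1, and the first mice alone gave −0.0095 for Egr2 and 0.16 for Ier2, with 0.013 for Ier2 from cage sums. Leaving out each mouse, the same comparison ran from −0.32 to 0.026 for Fos, from −0.00066 to 0.19 for Fosb, from −0.019 to 0.20 for Junb, from −0.0496 to 0.27 for Npas4, from −0.0094 to 0.27 for Nr4a1 and from −0.15 to 0.16 for Ier2. For fasted against chow at 16 h, the second mice alone gave 0.079 for Fosl2. At 24 h, equal column weights gave −0.043 for Egr1, −0.065 for Egr2 and −0.36 for Arc. For Npas4 at 24 h, RLE size factors gave 0.0084, DESeq2 0.011 and the fit without mice 1423 and 1454 gave 0.00048. Arc at 24 h was −0.015 without mouse 1445. Leaving out each mouse at 24 h, values ran from −0.30 to 0.11 for Npas4, from −0.029 to 0.10 for Ier2 and from −0.015 to 0.27 for Arc. The difference of the fasting effects for Arc was −0.045 with equal column weights.

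Regions were not separated, single columns at 24 h were often shallow, and 9 cages limit what the comparison of cage mates can show for genes of few counts.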
